A study of Mus musculus with 16 samples.

Results

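C/D box small nucleolar RNAs (snoRNAs) were followed in plasma-derived extracellular vesicles (pEVs) of PS19 mice and their wild-type (WT) littermates. The members are all entries of the deposited non-coding RNA (ncRNA) table whose symbol begins with Snord, apart from those that begin with Snord115 or Snord116, and they number 77 of 15159 ncRNAs. PS19 mice (labelled PS19+/-, so heterozygous) carry a mutant human tau (MAPT) transgene driven by the mouse prion protein promoter on a mixed C57BL/6 and C3H background, and WT littermates lack it. Each group held 8 mice aged 9.6 months, and each mouse gave 200 µL of plasma and 1 library. The labels do not tie a sex to a mouse, and the libraries carry no measure of the transgene, so the genotype was taken from the labels. Plasma pEVs were precipitated with a commercial kit and come from many tissues, so that fewer vesicles from a source and less RNA per vesicle cannot be told apart. Library names begin with G for all 8 PS19 mice and for 2 of 8 WT mice, and with other letters for the rest; what the letter stands for is not given, and it cannot be told apart from genotype in the full comparison.

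C/D box snoRNAs are short nucleolar RNAs, mostly cut from the introns of host genes, which hold a C box near the 5′ end and a D box near the 3′ end. Most of them pair with ribosomal RNA or spliceosomal RNA and guide the enzyme fibrillarin to add a methyl group to a ribose. A few, such as U8 (Snord118), U13 (Snord13), U14 (the Snord14 copies) and U22 (Snord22), are known instead, or in addition, for their part in cutting or folding the precursor of ribosomal RNA. Their presence outside cells, within vesicles or as fragments, has been described for plasma in general.

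The sequences of the members on which the results turn are given below from GENCODE transcripts (GRCm38, the mm10 build), 5′ to 3′, with the C box letters (TGATGA, or TGATG where the last base differs) found in the first 25 bases and the last CTGA in the final 20 bases, the D box letters, in capitals. Snord2, Snord49a and Snord85 are shown because together they gave 49.3% of all member reads; the Snord14 and Snord50 pairs because their copies nearly coincide; and Snord53, Snord61 and Snord70 because they are among the 6 members with the smallest p between PS19 and WT.
Snord2: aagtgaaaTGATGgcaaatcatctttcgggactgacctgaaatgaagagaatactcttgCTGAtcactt
Snord49a: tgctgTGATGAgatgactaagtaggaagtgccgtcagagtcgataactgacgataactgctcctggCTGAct
Snord85: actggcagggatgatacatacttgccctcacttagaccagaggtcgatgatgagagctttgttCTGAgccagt
Snord14c: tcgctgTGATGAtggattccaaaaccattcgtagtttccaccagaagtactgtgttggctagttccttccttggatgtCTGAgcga
Snord14d: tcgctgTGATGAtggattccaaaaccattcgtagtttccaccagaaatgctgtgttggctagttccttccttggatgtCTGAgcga
Snord50a: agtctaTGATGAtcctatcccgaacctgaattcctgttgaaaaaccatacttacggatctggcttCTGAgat
Snord50b: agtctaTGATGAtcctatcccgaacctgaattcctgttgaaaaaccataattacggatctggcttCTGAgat
Snord53: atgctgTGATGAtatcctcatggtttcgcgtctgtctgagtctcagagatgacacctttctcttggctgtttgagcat
Snord61: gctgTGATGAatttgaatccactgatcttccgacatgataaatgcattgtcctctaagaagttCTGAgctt
Snord70: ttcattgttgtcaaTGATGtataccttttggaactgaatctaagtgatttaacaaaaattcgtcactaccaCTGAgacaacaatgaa

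Snord2 lies at chr16:23108953-23109021 (+) in Eif4a2, a translation initiation factor gene, and Snord49a at chr11:62603450-62603521 (+) in an intron of the non-coding host 2410006H16Rik. Snord14c, at chr9:40803583-40803668 (+), and Snord14d, at chr9:40803995-40804080 (+), both sit in Hspa8, a heat shock protein gene. Snord50a, at chr9:88521529-88521600 (-), and Snord50b, at chr9:88521797-88521868 (-), sit in the non-coding host Snhg5. Snord53 lies at chr17:71640879-71640956 (+) in an intron of Wdr43, whose product takes part in ribosome assembly, Snord61 at chrX:57391449-57391519 (-) in an intron of Rbmx, and Snord70 at chr1:59691934-59692020 (+) in an intron of Nop58, a core protein of C/D snoRNA particles.

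All 77 members matched a GENCODE gene. Their lengths ran from 64 to 238 bases with a median of 80. By annotation, 37 lay in an intron of a host gene on the same strand, 37 overlapped an exon of at least 1 host transcript, and 3, Snord13, Snord104 and Snord118, lay outside other genes. Of the 77 members, 5 lay opposite another gene, and how strand was used in counting is not given in the sources used here. The C box letters TGATG were found in the first 25 bases of 66 members (85.7%), the D box letters CTGA in the last 20 bases of 75 (97.4%), and both in 64 (83.1%), all read on the given strand. For the 34 H/ACA entries of the table with a sequence these counts were 0, 2 and 0. In the first 80 bases of 140371 GENCODE transcripts the same search found the C box letters in 2.48%, the D box letters in 10.05% and both in 0.254%. Among the printed sequences, Snord85 lacks the C box letters in the window and Snord53 the D box letters, which says only that these exact letters are not there.

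Copies limit what can be assigned to a single member. Snord14c and Snord14d share 97.7% of their bases and differ by G47A and A49G (Snord14c base, position from the 5′ end, Snord14d base), and their read counts, 7124 and 7138, never differed by more than 23 in a library. Snord50a and Snord50b differ only by C50A, with 3824 and 3831 reads and a gap of at most 14. Reads of 1 copy could have been counted for both, so the entries of a pair are not independent. Counts of members below take each entry separately unless a pair is said to be taken as 1. Of the 77 members, 6 also had the same values as an entry under another name in all 16 libraries, among them Snord50a with Gm24463.

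The members were rare. They held 115154 of 1368991896 assigned reads, or 84.1 per 1000000 reads (CPM), against 11295 reads for the 36 H/ACA and Cajal body RNA entries (Snora and Scarna) and 3331 for the 17 Snord115 and Snord116 entries. Reads per member ran from 3 to 19947 with a median of 177. There were 18 members with 1000 reads or more, 29 with at least 100 but fewer than 1000 and 30 with fewer than 100, of which 7 had fewer than 10. A total of 35 members had reads in all 16 libraries, and a library held reads of 50 to 70 members. Snord85, Snord2 and Snord49a gave 56749 reads in all. Library totals were between 36220722 reads (WT replicate 2) and 117583663 reads (WT replicate 8).

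The share of C/D box reads varied widely between mice of the same group. In PS19 it ran from 17.8 CPM (95% exact binomial interval 16.9 to 18.7) to 260 (257 to 264) with a median of 48.3, and in WT from 28.9 to 203 with a median of 74.4. The means were 77.7 ± 78.1 for PS19 and 96.8 ± 56.0 for WT (SD, n = 8 each). The ranges overlapped almost entirely, and the highest value, that of PS19 replicate 5, stood well above the other 7 PS19 libraries, which reached 100 CPM at most. Without PS19 replicate 5 the log2 ratio of the mean shares, PS19 over WT, was -0.91. Taken instead per 1000 reads outside tRNAs, the means were 10.5 ± 11.3 for PS19 and 7.57 ± 4.26 for WT (SD, n = 8 each), the opposite order, but the medians were 5.05 and 6.38. The order of the means rests on PS19 replicate 4, at 35.6; without it the PS19 mean was 6.96 ± 5.55 (SD, n = 7). These intervals cover counting error only.

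**Figure D1:**
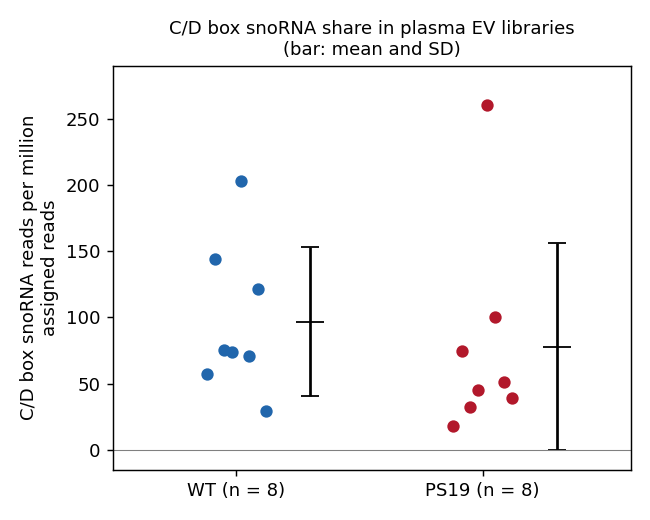
Reads of the 77 C/D box snoRNAs per 1000000 assigned reads (CPM, vertical axis) in each of the 8 WT and 8 PS19 pEV libraries; points are libraries and the bar gives mean and SD. PS19 replicate 5 stands at 260 CPM, and of the remaining PS19 libraries 1 lies at 17.8, below the WT range of 28.9 to 203, and 6 lie within it.

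Levels are given as the deposited normalized count, that is reads divided by a factor for each library, and were set between members only per 100 bases of annotated length. Snord2 led with a mean of 1737 per 100 bases over the 16 libraries, followed by Snord85 with 1568 and Snord49a with 1557. The next were Snord14d (393), Snord14c (392), Snord59a (388), Snord50b and Snord50a (each 330), Snord57 (323) and Snord99 (230). Single libraries overlapped between all neighbours in this order, also at its widest step, between Snord49a and Snord14d.

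Snord2 ran from 254 to 3624 normalized counts in PS19, with a median of 473, and from 269 to 3627 in WT, with a median of 970. The 4 libraries with the highest Snord2 levels were WT replicate 7, PS19 replicate 4, PS19 replicate 5 and WT replicate 3, so high libraries occurred in both groups. The level in PS19 replicate 4 rests on the smallest library factor, 0.261, at which 1 read counts as 3.83.

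Snord49a followed the same libraries. Its levels ran from 305 to 2938 in PS19 (median 417) and from 239 to 3223 in WT (median 1014). Both groups again spanned nearly the same range.

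Snord85 behaved otherwise. It reached 5454 in PS19 replicate 5, 4251 in PS19 replicate 6 and 3171 in WT replicate 4, and lay between 185 and 589 in the other 13 libraries. Those 3 libraries held 6607, 4625 and 2054 of its 19947 reads.

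**Figure D2:**
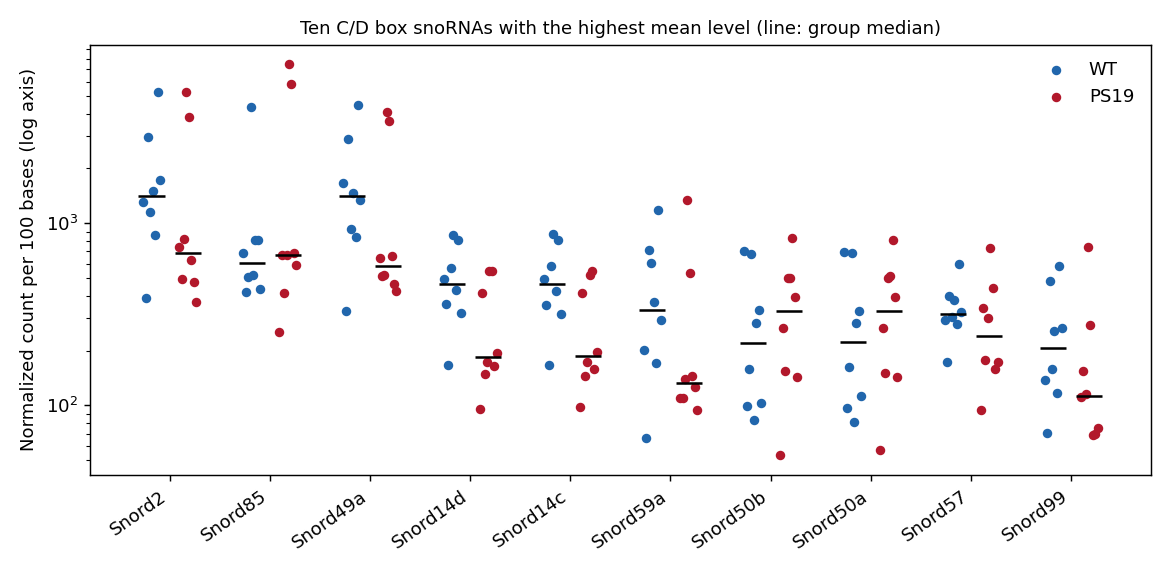
Normalized count per 100 bases (log axis) of the 10 members with the highest mean level, for each WT (blue) and PS19 (red) library; points are libraries and the line is the group median. Snord85 has 3 libraries, 2 PS19 and 1 WT, far above its other 13, whereas Snord2 and Snord49a are high in other libraries of both groups.

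The contrast was clearest as a ratio of reads within a library, which does not depend on the library factor. Snord49a reads over Snord2 reads stayed between 0.659 and 1.31 in all 16 libraries, a range of 1.996-fold, although the level of each alone varied by 14.3-fold (Snord2) and 13.5-fold (Snord49a). Snord85 reads over Snord2 reads ran from 0.135 in PS19 replicate 4 to 9.80 in PS19 replicate 6, a range of 72.3-fold. Its median was 1.47 in PS19 and 0.459 in WT, but the ranges, 0.135 to 9.80 and 0.162 to 3.996, overlapped and no test was made, as the ratio was chosen after the values were seen.

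**Figure D3:**
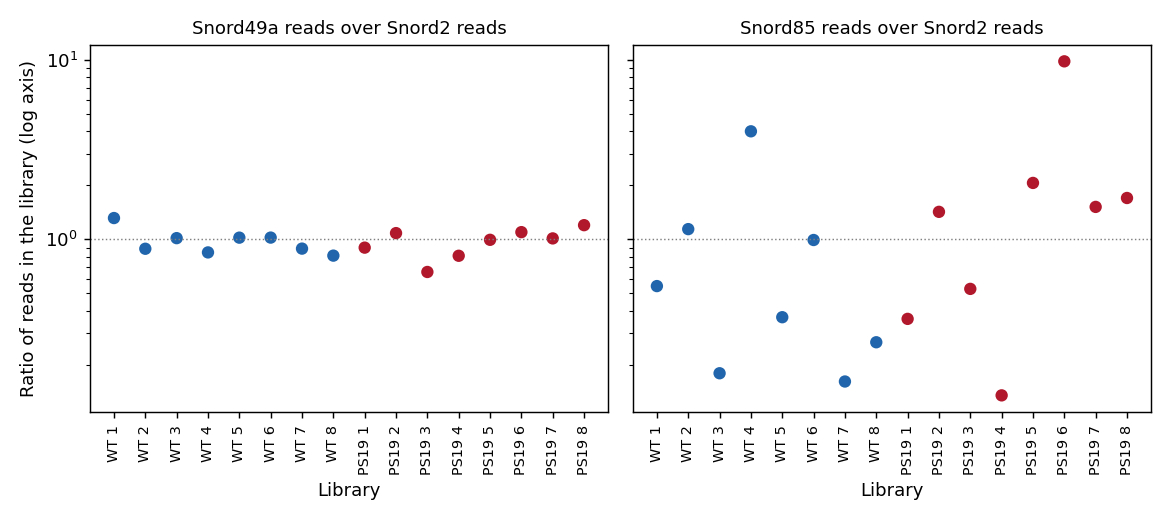
Ratio of reads in each library (log axis) for Snord49a over Snord2 (left) and Snord85 over Snord2 (right), with WT in blue and PS19 in red; the dotted line marks a ratio of 1. The left ratio stays between 0.659 and 1.31, and the right one spans 0.135 to 9.80.

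The other members with at least 500 reads divided in the same descriptive way. Of 26 beside Snord2, 12 kept a ratio to it that varied by less than 5-fold over the 16 libraries: Snord49a, Snord110, Snord95, Snord64, Snord59a, Snord99, Snord96a, Snord47, Snord80, Snord90, Snord21 and Snord52. They lie in 10 different hosts on 8 chromosomes, with Snord47 and Snord80 together in Gas5 and Snord95 and Snord96a together in Rack1. The other 14 varied by 6.47-fold or more, among them Snord57, Snord82, Snord118, Snord87, Snord53 and the Snord14 and Snord50 pairs. No member kept a ratio to Snord85 within 5-fold, and the narrowest was Snord118 with 6.64-fold. Snord118 was highest in PS19 replicate 6 (208), PS19 replicate 5 (124) and WT replicate 4 (116), the libraries in which Snord85 was high. The 12 members with a narrow ratio had a median length of 74 bases and a median GC content of 44.3%, against 81 bases and 46.0% for the other 14, with overlapping ranges. Reads per member overlapped between both sets, with 658 to 18112 for the 12 and 528 to 19947 for the 14, and the division was made after the values were seen.

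For PS19 compared to WT, only Snord53 passed a raw p under 0.05 (limma on log2(normalized count + 1), fitted to all ncRNAs), and it was higher in PS19. This is 1 of 77 members, or 1.30%, where 412 of all 15159 ncRNAs were higher (2.72%) and 323 lower (2.13%), 4.85% in all. No member was lower at raw p under 0.05. After Benjamini-Hochberg adjustment over all ncRNAs no member and no ncRNA passed, and the smallest adjusted p of a member was 0.829. By DESeq2 on the recovered reads 3 members were higher and 0 lower (5.42% of all ncRNAs called), and by edgeR 6 were higher and 2 lower (15.1% called); no member passed after adjustment by either, where 0.745% of all ncRNAs passed by DESeq2 and 2.1% by edgeR. No member had groups that did not overlap, nor did any of the 15159 ncRNAs (0%).

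The estimates lay on both sides of 0. A total of 45 members had a lower and 32 a higher fitted mean in PS19, the log2 fold changes ran from -1.26 (Snord22) to 1.96 (Snord53), and their median was -0.13 beside -0.01 over all ncRNAs (-0.12 over the 72 members with reads in both groups). This median turned with the scaling: it was -0.32 with library totals and 0.27 with factors from miRNAs alone, while the median over all ncRNAs was -0.11 and 0.18. With miRNA factors 24 members were lower and 53 higher, and with library totals 52 and 25. In the libraries whose names begin with G 22 were lower and 54 higher, with a median of 0.38 beside 0.16 over all ncRNAs. In the main fit 58.4% of members and 50.8% of all ncRNAs were lower. Calls over all ncRNAs turned too, with 145 higher and 296 lower under library totals and 766 and 128 under miRNA factors. The precision was limited: for the 18 members with 1000 reads or more the standard error of the log2 fold change was 0.46 to 0.74.

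**Figure D4:**
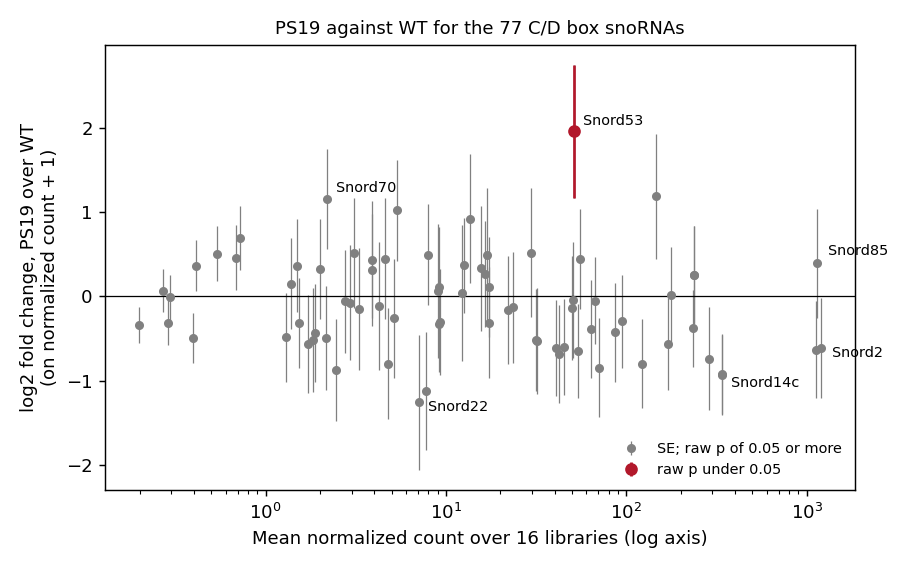
Log2 fold change of PS19 over WT, on log2(normalized count + 1), against mean normalized count (log axis) for the 77 members; bars are standard errors and the red point is the member with raw p under 0.05. Snord53 stands at 1.96, and the bars of 49 of 77 members cross 0.

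Snord53 ran from 6.54 to 276 normalized counts in PS19, with a median of 43.9, and from 0 to 97.6 in WT, with a median of 19.1. The means were 77.4 ± 87.4 and 25.01 ± 31.9 (SD, n = 8 each). The groups overlapped, with PS19 replicates 4 (276) and 3 (106.975) above every WT library and WT replicate 2 at 0 reads, which allows up to 1.23 normalized counts (3 reads). The log2 fold change was 1.96 (SE 0.79, raw p = 0.0196, adjusted p = 0.829 by limma), and the two-sided exact permutation test gave p = 0.058. Without WT replicate 2 the value was 1.45 and no longer passed (limma raw p = 0.0553, beside the exact p above for all libraries). By DESeq2 and edgeR it did not pass either (raw p = 0.0512 and 0.0908, beside the same exact p). Its neighbour in the same host, Snord92, had 22 reads in all.

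**Figure D5:**
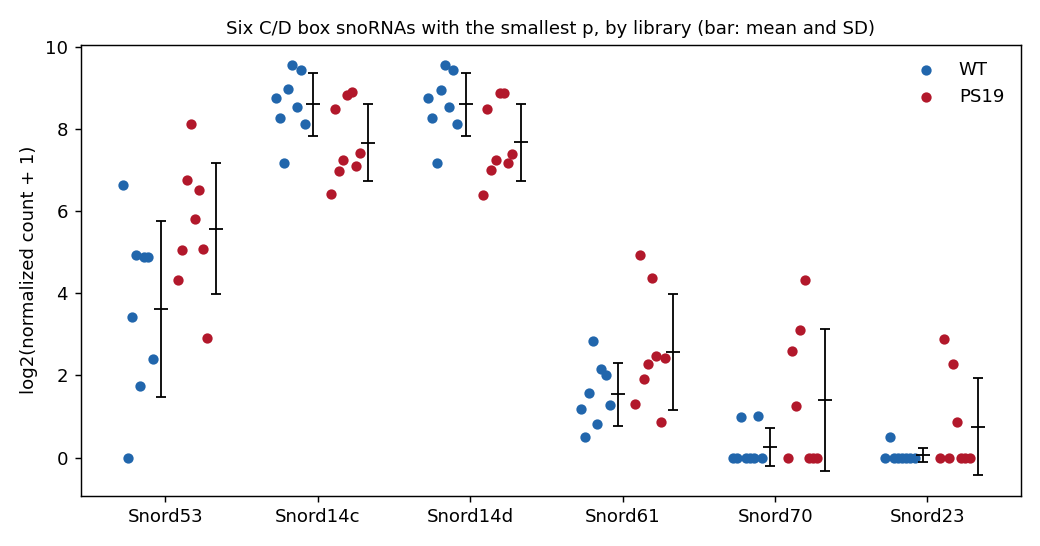
log2(normalized count + 1) by library for the 6 members with the smallest limma p, with WT in blue and PS19 in red; points are libraries and bars give mean and SD. The groups overlap for all 6, and most libraries hold no read of Snord70 or Snord23.

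The U14 copies in Hspa8, which pair with 18S ribosomal RNA and are needed for its processing, stood next. Snord14c ran from 83.8 to 472 in PS19, with a median of 159, and from 144 to 748 in WT, with a median of 397. Of the 8 PS19 libraries, 5 lay at 83.8 to 169 and 3, replicates 2, 5 and 6, lay at 355 to 472, within the range of the other 7 WT libraries. WT replicate 3, at 144, lay among the 5. The means were 243 ± 157 and 432 ± 207 (SD, n = 8 each). The log2 fold change was -0.93 (SE 0.48, raw p = 0.0619, adjusted p = 0.829 by limma), and the two-sided exact permutation test gave p = 0.0496 for Snord14c and 0.0511 for Snord14d. Snord14c was the only one of 77 members with an exact permutation p under 0.05, a share below the 3.96% of all ncRNAs that passed the same test. Both copies passed a raw p of 0.05 when PS19 replicate 2, PS19 replicate 5, PS19 replicate 6 or WT replicate 3 was left out, with log2 fold changes of Snord14c down to -1.14, and not when any of the other 12 libraries was left out, where the smallest change of Snord14c was -0.75 (without PS19 replicate 1). With miRNA factors the value of Snord14c was -0.35, without a call.
The other U14 entries were nearly empty: Snord14a had 3 reads, all in WT replicate 4, and Snord14e had 6 reads in 2 WT libraries, so neither gives a fold change.

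Snord70 held 35 reads, of which 33 were in 4 PS19 libraries (23 in PS19 replicate 5) and 2 in WT. The ratio of reads, corrected for the library factors, was 22.6 with a 95% counting interval of 5.78 to 194, and by library the log2 fold change was 1.16 (SE 0.60, raw p = 0.0628 by limma; exact permutation p = 0.0956). Without PS19 replicate 5 the ratio was 8.09 (1.72 to 75.9) and the log2 fold change 0.74. Snord23, in Nop53, held 12 reads, 11 of them in 3 PS19 libraries (9 in PS19 replicate 2) and 1 in WT, a ratio of 15.1 (2.19 to 649) with raw p = 0.0815 by limma and exact permutation p = 0.2. Its log2 fold change was 0.69, and 0.39 without PS19 replicate 2. Counting intervals of this kind ignore the spread between mice. Snord61 was read in all 16 libraries, from 0.836 to 29.3 in PS19 (median 4.10) and from 0.411 to 6.18 in WT (median 1.69). Its 2 highest libraries, PS19 replicate 2 and PS19 replicate 5, lay above every WT library, and the other 6 PS19 libraries lay within the WT range. Its log2 fold change was 1.03 (SE 0.60, raw p = 0.0982 by limma; exact permutation p = 0.0948), and 0.69 without PS19 replicate 2. DESeq2 and edgeR on the recovered reads called it at larger estimates of 1.98 and 1.83 (raw p = 0.0136 and 0.0237, beside the exact p of 0.0948). Both also called Snord70, at 3.93 and 3.50, and edgeR alone called Snord23, at 2.80.

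Among the 7 members known for a role in ribosomal RNA processing, 0 passed. With the Snord14c and Snord14d pair taken as 1 and the near-empty Snord14a and Snord14e left out, 4 measurements remained, of which 3 had an estimate below 0 (median -0.63), also under library totals and miRNA factors (medians -0.80 and -0.22). Snord118 (U8), which lies outside other genes and is needed for the large subunit RNAs, had means of 67.8 ± 66.0 for PS19 and 42.8 ± 32.8 for WT (SD, n = 8 each). Its log2 fold change was 0.44 (SE 0.59). Snord22 (U22), in the non-coding host Snhg1, had reads in 3 PS19 and 6 WT libraries and the lowest estimate of all members, -1.26 (SE 0.80). Its values ran from 0 to 30.3 in PS19 and from 0 to 27.8 in WT. Snord13 (U13) held 29 reads over 12 libraries, 5 PS19 and 7 WT, and its log2 fold change was -0.32 (SE 0.54).

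The 3 guides of U6, a spliceosomal RNA, gave no call either. Snord67 had means of 30.3 ± 29.97 for PS19 and 28.6 ± 33.4 for WT (SD, n = 8 each), and was highest in WT replicate 4, PS19 replicate 6 and PS19 replicate 5. Snord7 held 5 reads in 2 WT libraries, and Snord8 held 22 reads in 5 libraries, 10 of them in PS19 replicate 6. Snord8 also has a gene on the opposite strand.

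The imprinted members, Snord64 and Snord107, which lie in the Prader-Willi region of chromosome 7, had lower estimates in PS19 that did not pass. Snord64 ran from 11.4 to 153 in PS19 (median 13.7) and from 13.6 to 153 in WT (median 28.8), with a log2 fold change of -0.69 (SE 0.58). Snord107, with 123 reads, gave -1.12 (SE 0.70). The median of Snord64 in PS19 rests on 6 libraries between 11.4 and 22.04, with PS19 replicate 4 at 153. Without PS19 replicate 4 both passed a raw p of 0.05. In the libraries whose names begin with G both estimates were above 0, at 0.21 and 0.69.

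Of the members in growth-arrest host Gas5, Snord80 had an estimate of -0.80 and Snord47 of -0.39, neither passed, and with miRNA factors Snord47 turned above 0. The 21 members in ribosomal protein genes had 12 estimates below 0 and 9 above, none past the threshold, with a median of -0.05 and a range of -0.80 to 0.93; with miRNA factors only 3 stayed below 0 (median 0.34). Over the 18 of them with reads in both groups the medians were -0.08 and 0.33. The most abundant of them was Snord83b in Rpl3, with means of 176 ± 124 for PS19 and 177 ± 151 for WT (SD, n = 8 each). The 4 members in Rpl13a, Snord32a, Snord33, Snord34 and Snord35a, did not share 1 direction: Snord34 had an estimate of 0.93 and the other 3 lay between -0.32 and -0.01.

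The remaining highly read members also overlapped between the groups. Snord59a, in Atp5b, had means of 241 ± 324 for PS19 and 333 ± 271 for WT (SD, n = 8 each). Snord57, in Nop56, a core protein gene of C/D particles, had 218 ± 150 and 248 ± 88.4 (SD, n = 8 each), and was the member with the smallest standard error among the 18 most read, 0.46. Snord50b had 255 ± 182 and 220 ± 184 (SD, n = 8 each), and Snord99, in Snhg12, 149 ± 169 and 192 ± 136 (SD, n = 8 each). The log2 fold change of Snord99 was -0.57, and -0.91 without PS19 replicate 4, without a call in either. Snord2, Snord49a and Snord85 had log2 fold changes of -0.62 (SE 0.59), -0.63 (SE 0.58) and 0.39 (SE 0.65). All 3 turned sign in the libraries whose names begin with G, to 0.51, 0.65 and -0.47, none with a raw p under 0.05 by limma. Only 2 WT libraries are among them, 1 being WT replicate 4, where Snord85 was high. Snord57 and Snord99 turned there too, to 0.12 and 0.40, and Snord59a and Snord50b did not.

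The related snoRNA classes counted here, with symbols beginning with Snora, Scarna, Snord115 or Snord116, gave no call at raw p under 0.05 by limma. Entries of snoRNAs under other names were not counted, and the paper reports snoRNAs that differed in pEVs at its own raw Wald p. Of 36 H/ACA and Cajal body entries 20 had an estimate below 0 (median -0.06, smallest p 0.0504), and all 17 Snord115 and Snord116 entries had estimates between -0.43 and -0.34. How reads that match several entries were counted is not given, so these 17 estimates may not be independent.

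Marker miRNAs of cells that can reach plasma varied between libraries and differed in their group means. All 4 red blood cell miRNAs, both white blood cell and platelet miRNAs, the liver miRNA miR-122-5p and the endothelial miRNA miR-126a-3p were present in each group. The summed red blood cell level ran from 3517 to 88194 in PS19 and from 34008 to 186535 in WT, the liver level from 4644 to 189147 and from 22364 to 365051, the white blood cell and platelet level from 23.0 to 202 and from 14.2 to 117, and the endothelial level from 507 to 2201 and from 1421 to 3225. The means for PS19 and WT were 48866 and 91105 (red blood cell), 48535 and 122795 (liver), 75.6 and 52.7 (white blood cell and platelet) and 1293 and 2042 (endothelial). Their part in the C/D box levels was not tested.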

How the data were processed

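Small RNA libraries (NEBNext) from pEV RNA of 8 PS19 and 8 WT mice were single-end sequenced. According to the study's methods and the submitters' processing notes, the authors aligned reads to mm10 with STAR 2.5.3a, counted ncRNAs with COMPSRA and compared groups with DESeq2 1.42.1 at a raw Wald p; counting strand and the handling of reads that match several entries are not given in the sources used here. The values the authors deposited are a normalized signal, namely read counts divided by a DESeq2 size factor for each library (0.261 to 2.57). Whole reads were recovered by dividing by the smallest step of each library (100% of values whole within 1e-06 reads). The authors' columns of mean, fold change, error and p were not used.

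Levels were tested on log2(normalized count + 1), pseudocount 1, over 15159 ncRNAs with limma 3.58.1 in R 4.3.3 (lmFit, eBayes with trend, two-sided), with Benjamini-Hochberg adjustment, and each member by a two-sided exact permutation test of 8 against 8. DESeq2 1.42.0 and edgeR 4.0.16 were run on recovered reads, without a filter, and the scripts were tested on simulated data. Other alternatives were scaling by library totals or miRNA factors, a minimum mean of 1, a pseudocount of 0.1, a replicate block, G-named libraries alone, 1 ncRNA per identical set, and each library left out. Replicate means mice by label, and p-values measure the spread between them. Named members were the 10 highest per 100 bases, the 6 smallest p (fewer than 6 passed), and those with a listed role in processing, U6 or imprinted loci. The members and lists were chosen with earlier results of these data known. Snord58b is not printed as sequence. The genomic position of Snord85 is not reported here.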

Additional observations from a re-analysis of the deposited data

Results flagged for a closer look

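Single libraries far from the other 7 were sought in 50 groups of 8 libraries by Dixon's criterion (95% critical value for 8). The groups were each named member in PS19 and in WT, and the C/D box share. Member levels were on the log2(normalized count + 1) scale and the share on the CPM scale. A total of 5 libraries were flagged. For independent groups of normally distributed values chance alone flags about 1 in 20. A group at 0 reads in all but 1 library is always flagged, and the entries of a copy pair are not independent. The 5 flags are therefore not set against that rate. Snord85 in WT replicate 4 stood at 3171 normalized counts (2054 reads) where the other WT libraries lay between 307 and 589. The C/D box share in PS19 replicate 5 was 260 CPM, where the other PS19 libraries lay between 17.8 and 100; on a log2 scale its gap was 0.36 of the range and would not have passed.

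The other 3 are low counts in a group otherwise at 0. Snord8 in PS19 replicate 6 was at 9.19 (10 reads). Snord14a in WT replicate 4 was at 4.63 (3 reads). Snord23 in WT replicate 2 was at 0.411 (1 read).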

How the results depend on the processing

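The count of members higher in PS19 at raw p under 0.05, 1 by limma, was 3 by DESeq2 (Snord61, Snord70, Snord82), 6 by edgeR (Snord23, Snord35b, Snord49b, Snord4a, Snord61, Snord70), 3 with miRNA factors (Snord53, Snord61, Snord82; 5.9% of all ncRNAs called in either direction) and 2 with 1 ncRNA per identical set (Snord53, Snord70; 5.66% called). With 1 library left out it was 0 to 3, and it was 0 without WT replicate 2 alone. Over all ncRNAs 2.72% were higher by limma with all libraries, and this share was not taken with 1 library left out. The range of 0 to 3 is therefore not read as a result about the members. The count lower, 0 by limma, was 2 by edgeR (Snord14e, Snord7) and 2 in the libraries named with G (Snord14a, Snord14e), all at 6 reads or fewer. With 1 library left out it was 0 to 6: 6 without PS19 replicate 4 (Snord107, Snord58b, Snord59a, Snord64, Snord80, Snord90), 4 without PS19 replicate 6 (Snord14c, Snord14d, Snord22, Snord8), 3 without PS19 replicate 5 (Snord107, Snord14c, Snord14d), 2 without PS19 replicate 2 or WT replicate 3 (Snord14c, Snord14d) and 1 without WT replicate 2 (Snord22). With the Snord14 pair taken as 1, the counts of 4, 3 and 2 are 3, 2 and 1. The cause was not tested. Over all ncRNAs, 1.71% to 2.47% were lower with 1 library left out and 3.62% in the libraries named with G. Library totals, the minimum mean and the pseudocount of 0.1 kept both counts.

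With the replicate number as a replicate block, 2 members were higher (Snord53, Snord82) and 0 lower, with 4.52% of all ncRNAs called. The numbers name different mice, and the deviations of same-numbered libraries correlated at -0.18 to 0.47 over 2625 ncRNAs, above 0.1 in 2 of 8 pairs; 1 of 8 PS19 libraries correlated best with the WT library of its number. The samples thus share only a number.

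The median log2 fold change of the members, -0.13, lay between -0.36 and 0.38 over 25 alternatives, and the log2 ratio of mean C/D box shares, -0.32, between -0.91 (without PS19 replicate 5) and 0.48 (reads outside tRNAs) over 19. For comparison, the standard error of the difference between group means on the log2 scale was 0.50 for the median member level of a library and 0.51 for the share. Snord53 kept its direction in 25 of 25 and a raw p under 0.05 in 22. For the 24 named members and Snord82, which was added after its values were seen, 14 of 619 alternative estimates changed sign, none with a raw p under 0.05. Depth limits the 30 members with fewer than 100 reads: 10 of them had over 50% of their reads in 1 library.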
